A study of Mus musculus with 12 samples.

Results

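The sterol synthesis and lipogenesis genes described here are 36 mouse genes in 3 groups: 5 regulators of the sterol regulatory element binding proteins (SREBPs), 17 genes of cholesterol synthesis and 14 genes of fatty acid synthesis. They form a list of gene symbols that was drawn up with earlier results of these data known. The cholesterol and fatty acid arms are kept apart throughout. Of the 36, 31 had a probe set under that symbol and 30 passed the filter on low values, out of 6683 that passed among all 16475 probe sets. By group, 5 of 5 regulators, 14 of 17 cholesterol genes and 11 of 14 fatty acid genes were tested. Hmgcs1, Idi1, Fdps, Acaca and Acacb had no probe set of that symbol and were not analysed here. Pnpla3, which encodes a lipid droplet protein, lay between 1.97 and 2.53 on the log2 scale on all 12 arrays and was not tested. Levels are given as log2(intensity + 1) of the probe set, and differences are differences on that scale. Probe sets bind with unequal strength, so the level of a gene is compared only with its own level on other arrays.

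Liver RNA of 12 mice was hybridised to Affymetrix arrays, 1 array per mouse, with 3 mice in each of 4 groups. Control mice were c-Met loxP/loxP, with both copies of the receptor gene for hepatocyte growth factor (HGF) flanked by loxP sites. Knockout mice, labelled c-Met Dhepa, carried the same alleles with Cre, either Alfp-Cre from an albumin and alpha-fetoprotein promoter active in the embryo or Alb-Cre from the albumin promoter, active from 2 weeks after birth. The labels do not say which Cre an array represents, and no age or sex is given. Each genotype was sampled unstimulated and 2 h after 2 µg recombinant mouse HGF by intraperitoneal injection. The protocol mentions NaCl as well as HGF, and whether the unstimulated mice received it is unclear, so handling and HGF cannot be told apart. The arrays carry numbers, 1 to 6 for controls and 7 to 12 for knockouts, so genotype and array order cannot be told apart either. In whole liver, fewer cells of a type and less RNA per cell cannot be told apart.

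Cholesterol is made from acetyl-CoA by a chain of enzymes that runs through mevalonate, squalene and lanosterol, and fatty acids are made from the same precursor by a separate set of enzymes. Both sets are transcribed under SREBPs, membrane-bound factors that Scap escorts to the Golgi for cleavage and that the Insig proteins hold back in the endoplasmic reticulum when sterols are plentiful. SREBP-2 acts mainly on the cholesterol genes and SREBP-1c mainly on the fatty acid genes, and in liver SREBP-1c responds to insulin and feeding. Promoters of such genes often combine a sterol element with a CCAAT box bound by NF-Y and a GC box bound by Sp1.

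Promoter windows, from 250 bases before to 50 bases after the RefSeq start on GRCm38.p6, were at hand for 30 of the 36 members and for 27025 genes in all. Fads1, Fdps, Fdft1, Scd1, Stard4 and Sqle had no window. A CCAAT box (CCAAT on either strand) lay in all 13 cholesterol genes with a window, in 9 of 12 fatty acid genes and in 4 of 5 regulators, 26 of 30 members, against 41.1% of all genes and 43.4% of the tested genes. The fatty acid genes without it were Acaca, Elovl6 and Fads2, and the regulator without it was Scap. A GC box (GGGCGG on either strand) lay in 12 of 13 cholesterol genes, 6 of 12 fatty acid genes and 5 of 5 regulators, against 38.2% of all and 68.7% of tested genes. The E-box CACGTG was present in 6 of 30 members, against 8.09% of all and 12.5% of tested genes. The SRE core TCACNCCAC was present in 1 of 30 members, Hmgcs1, against 1.44% of all and 1.59% of tested genes. Matches of different motifs may overlap, and a match shows the letters only. The 5 windows below cover the 250 bases before the start, 5′ to 3′ on the plus strand. They belong to the cholesterol genes Lss and Nsdhl and the fatty acid gene Acss2, which were far lower on 1 control array after HGF than on the other 11, to the regulator Insig1, and to Elovl6, which was not lower on that array. Capitals mark matches to the 4 motifs on either strand, and the Elovl6 window holds none. Insig2 and Srebf2 have CCAAT and GC boxes but were not at their lowest on that array. Fads2 has no CCAAT box and was at its lowest there. A link between motifs and levels was not tested. Lss lies at chr10:76531355-76531604, Nsdhl at chrX:72918271-72918520, Acss2 at chr2:155517793-155518042, Insig1 at chr5:28071162-28071411 and Elovl6 at chr3:129532136-129532385.
Lss: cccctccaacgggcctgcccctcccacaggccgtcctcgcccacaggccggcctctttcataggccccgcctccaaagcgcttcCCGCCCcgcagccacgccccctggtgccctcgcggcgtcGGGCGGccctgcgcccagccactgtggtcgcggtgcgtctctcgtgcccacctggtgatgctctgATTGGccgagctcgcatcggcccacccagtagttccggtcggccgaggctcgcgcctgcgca
Nsdhl: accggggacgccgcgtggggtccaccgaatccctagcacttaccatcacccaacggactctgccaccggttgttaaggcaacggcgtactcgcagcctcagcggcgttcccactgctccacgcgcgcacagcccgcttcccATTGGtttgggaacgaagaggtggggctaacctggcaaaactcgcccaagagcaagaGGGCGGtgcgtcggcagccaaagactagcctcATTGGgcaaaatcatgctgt
Acss2: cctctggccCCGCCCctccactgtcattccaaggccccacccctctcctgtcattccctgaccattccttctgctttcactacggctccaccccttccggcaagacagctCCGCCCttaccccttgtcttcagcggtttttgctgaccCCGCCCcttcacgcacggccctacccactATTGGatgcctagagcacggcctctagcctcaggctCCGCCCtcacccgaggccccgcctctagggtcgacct
Insig1: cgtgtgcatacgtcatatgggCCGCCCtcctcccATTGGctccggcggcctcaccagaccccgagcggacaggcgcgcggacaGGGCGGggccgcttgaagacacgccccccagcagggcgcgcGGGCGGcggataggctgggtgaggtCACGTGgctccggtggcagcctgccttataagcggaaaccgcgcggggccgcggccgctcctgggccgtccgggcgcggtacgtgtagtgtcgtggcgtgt
Elovl6: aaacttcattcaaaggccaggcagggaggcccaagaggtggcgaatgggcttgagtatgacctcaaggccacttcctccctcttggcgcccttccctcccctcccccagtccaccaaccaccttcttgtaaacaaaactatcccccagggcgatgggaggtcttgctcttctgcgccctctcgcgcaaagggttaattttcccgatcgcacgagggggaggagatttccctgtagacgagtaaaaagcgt

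Some arrays stood apart or went against their labels. Met was not lower in the knockout arrays, at 6.29 to 7.40 against 6.59 to 7.02 in controls, and where its probe set lies relative to the deleted exon is not known here. Tnfaip3, an NF-kappaB target, was at 2.15 to 2.38 in unstimulated controls and at 9.67 to 10.82 in controls with HGF. On the knockout arrays it was at 3.41, 10.22 and 2.45 unstimulated (replicates 1 to 3) and at 3.74, 2.44 and 9.59 after HGF. Knockout replicate 2 thus stood, in both conditions, at the level of the control group with the other HGF label, and knockout replicate 1 with HGF was near the unstimulated controls for this gene. Calls that changed without knockout replicate 2 in both conditions, and medians that it moved by over 1.5 times or turned, are given with and without it. That exclusion was set with values of these arrays known. The hepatocyte list (10 of 12 genes passed the filter) summed to a log2 of 16.75 to 16.87 on every array, the highest being control replicate 1 with HGF. None of the 7 cholangiocyte or 9 lymphocyte genes passed the filter, and 3 of 9 adipocyte, 3 of 10 neutrophil, 12 of 14 Kupffer cell, 9 of 10 endothelial, 7 of 11 stellate, 1 of 8 erythroid and 1 of 8 acinar genes did. The adipocyte gene Adipoq was at 6.88 on knockout replicate 1 without HGF and at 1.63 to 2.06 on the other 11 arrays.

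Across the 4-group model, 0 of 30 members were called in any of the 6 contrasts (limma, Benjamini-Hochberg adjusted p under 0.05 over all 6683 probe sets). For the HGF effect in controls, 0.404% of all tested probe sets were called, and 5 of 30 members had an unadjusted p under 0.05, against 19.6% of all. The HGF effect in knockouts called 0% of all, and 0 of 30 members had an unadjusted p under 0.05, against 1.90% of all. Without HGF the knockout effect called 0.0599% of all, and 1 of 30 members had such a p, against 10.8%. With HGF it called 0.0150%, and 2 of 30 members had such a p, against 9.58%. The averaged knockout effect called 0.0150%, with 1 of 30 members against 9.38% of all at an unadjusted p under 0.05. The interaction, the HGF effect in knockouts minus that in controls, called 0%, with 1 of 30 members against 10.8%. The members' shares were below those of all probe sets in every contrast. The members also varied more, with a median SE of 0.357 for a difference between 2 groups against 0.178 over all probe sets.

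Both synthesis arms departed furthest from their median levels in 1 mouse. On control replicate 1 with HGF, 14 of 14 cholesterol genes and 9 of 11 fatty acid genes were at their lowest of the 12 arrays, against 19.0% of all tested probe sets. The regulators were at their lowest there in 2 of 5 cases, Srebf1 and Insig1. The median deviation of the cholesterol arm from the gene medians was -1.33 on that array and -0.10 to 0.20 on the other 11. For the fatty acid arm it was -0.98 there and -0.22 to 0.48 elsewhere, and for all tested probe sets -0.04 there. At least 1 log2 unit below the median of the other 11 arrays were 10 of 14 cholesterol genes, 6 of 11 fatty acid genes and 1 of 5 regulators, against 2.93% of all tested probe sets. This array was singled out after its values were seen, so these counts are a description and no test was made.

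**Figure D1:**
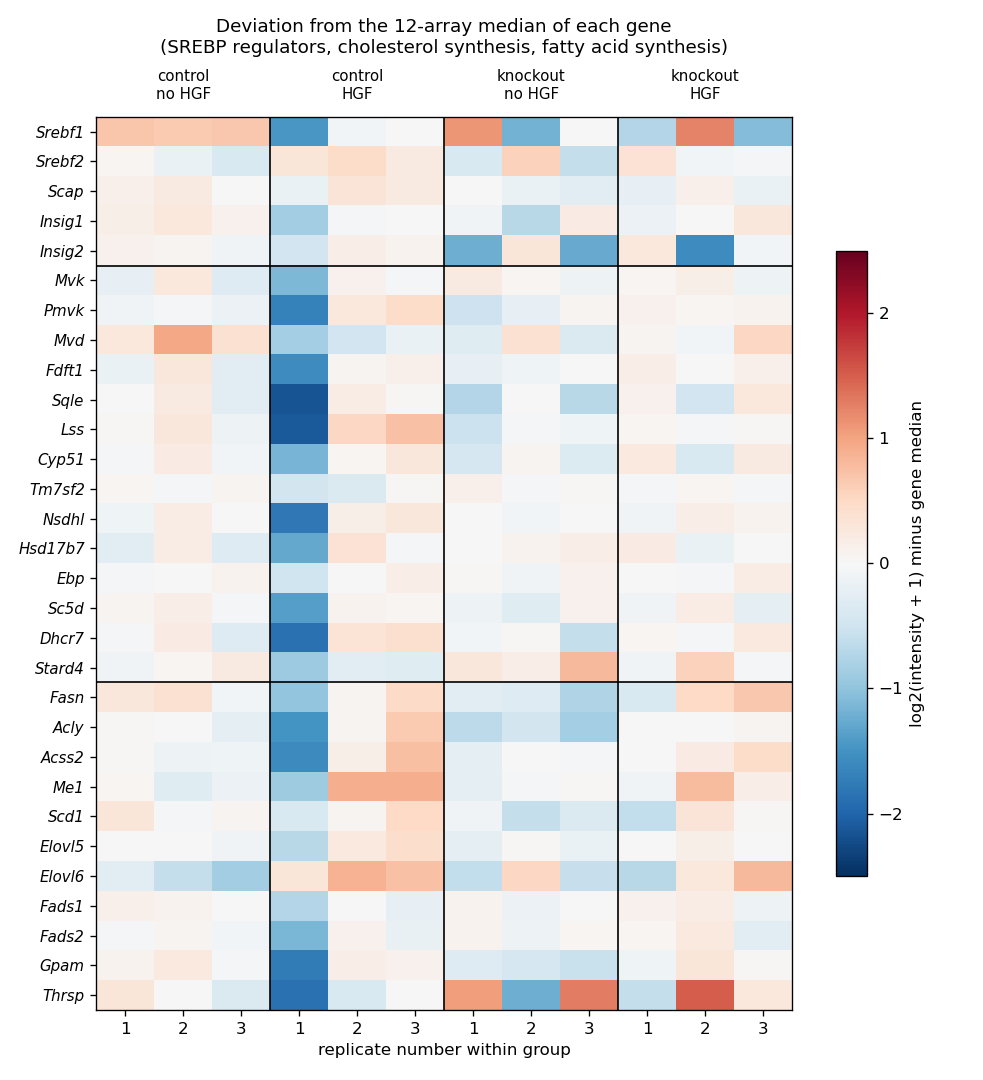
Each tested member (rows, in the order regulators, cholesterol synthesis, fatty acid synthesis) on each of the 12 arrays (columns, by group and replicate), coloured by its log2(intensity + 1) minus the median of that gene over the 12 arrays. The column of control replicate 1 with HGF is dark blue through the cholesterol arm (median -1.33) and most of the fatty acid arm (median -0.98), while Elovl6 and Srebf2 are above their medians there.

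Among the regulators, Srebf1, which encodes SREBP-1, was at 9.43, 9.38 and 9.40 in unstimulated controls (replicates 1 to 3) and at 7.28, 8.65 and 8.71 with HGF. All HGF arrays lay below all unstimulated ones, and the 3 unstimulated arrays agreed to an SD of 0.03 (n = 3). The difference of -1.19 (SE 0.68, 95% CI -2.70 to 0.33) did not pass (limma adjusted p = 0.361). In knockouts Srebf1 was at 9.84, 7.54 and 8.75 unstimulated and at 8.0, 9.97 and 7.65 after HGF, with SDs of 1.15 and 1.25 (n = 3 each), and the groups overlapped. The 4-group model pools this spread with that of the controls. In a fit of the control arrays alone without replicate 1 with HGF, an alternative chosen after seeing the data, Srebf1 fell by 0.72 (SE 0.08, limma adjusted p = 0.0054). With that replicate kept, the control arrays alone gave an adjusted p of 0.0908 (limma), and the range over all alternatives was 0.0054 to 0.663.

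Srebf2, the gene of the cholesterol factor SREBP-2, stood on the other side. It was at 5.14, 4.93 and 4.71 in unstimulated controls and at 5.41, 5.56 and 5.33 with HGF, and the groups did not overlap. These are low levels, near the filter at a log2 of 4. The difference was 0.50 (SE 0.27, limma adjusted p = 0.327) and 0.51 without replicate 1 with HGF, the array on which the cholesterol genes were lowest. In knockouts Srebf2 was at 4.73, 5.67 and 4.50 unstimulated and at 5.47, 5.04 and 5.06 after HGF. Its highest value of all was on knockout replicate 2 without HGF.

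Insig1, a sterol-responsive gene whose protein retains Scap, was at 8.48, 8.58 and 8.43 in unstimulated controls and at 7.46, 8.29 and 8.31 with HGF. These groups did not overlap either, with a difference of -0.47 (SE 0.26, limma adjusted p = 0.349). In knockouts it was at 8.24, 7.63 and 8.53 unstimulated and at 8.17, 8.34 and 8.61 after HGF, a difference of 0.24 (SE 0.26). Without control replicate 1 with HGF the control difference of Insig1 was -0.20, and without knockout replicate 2 in both conditions its knockout difference was 0.0082. The interaction for Insig1 was 0.72 (SE 0.37, limma adjusted p = 0.525). Scap itself lay within 8.73 to 9.31 on all arrays, with an HGF difference of 0.006 in controls (SE 0.15, limma adjusted p = 0.986). Its unstimulated knockout arrays (8.98, 8.82 and 8.73) lay below the unstimulated controls (9.12, 9.21 and 8.99), a difference of -0.26 (SE 0.15, limma adjusted p = 0.596).

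Insig2, which in liver has a transcript lowered by insulin, differed little between the control groups, at 10.70, 10.64 and 10.51 unstimulated and at 10.10, 10.76 and 10.67 after HGF. In knockouts it was at 9.36, 10.88 and 9.32 unstimulated and at 10.85, 9.01 and 10.52 after HGF. Replicates 1 and 3 without HGF and replicate 2 with HGF were thus more than 1 log2 unit below the other knockout arrays. The knockout effect without HGF was -0.76 (SE 0.50, limma adjusted p = 0.650) and the HGF effect in knockouts 0.27 (SE 0.50, limma adjusted p = 1.00). With knockout replicate 2 left out in both conditions, Insig2 fell by 1.27 in unstimulated knockouts against controls (SE 0.20, limma adjusted p = 0.017), with 2.69% of all probe sets called. With the same arrays left out, it rose by 1.34 with HGF in knockouts (SE 0.22, limma adjusted p = 0.018), with 4.16% of all called. No other member was called in these 2 contrasts under that alternative, which was set with values of these arrays known. The arrays left out held the highest unstimulated and the lowest HGF-treated Insig2 of the knockouts (10.88 and 9.01), so both differences were bound to widen. The knockout arrays that remained also differed by HGF label in the clock gene Dbp, as given below.

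**Figure D2:**
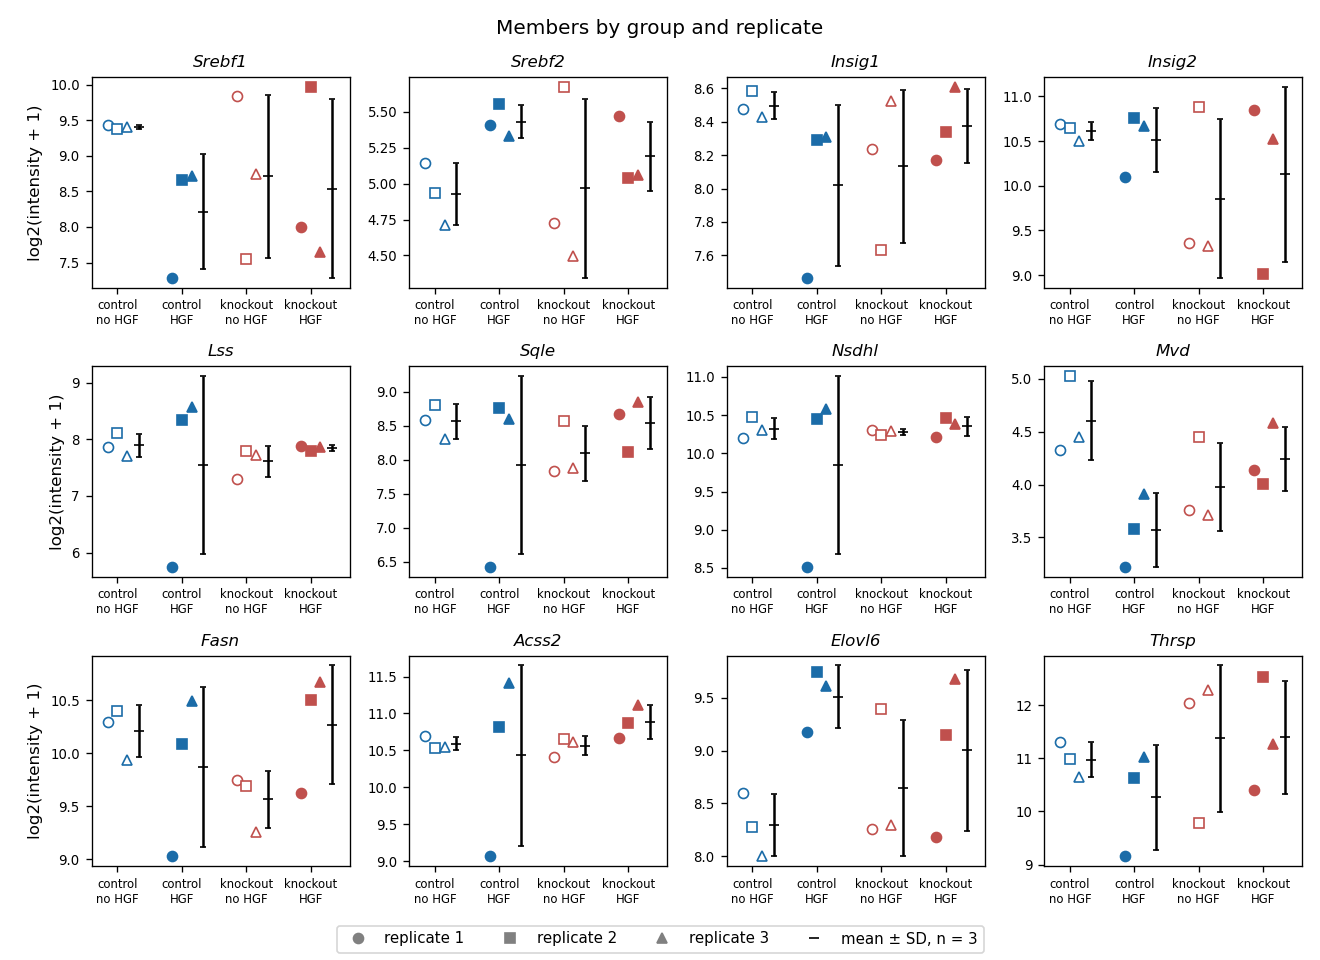
Levels of 12 members as log2(intensity + 1) on each of the 12 arrays, by group (controls blue, knockouts red, open without HGF, filled with HGF) with the mean ± SD of 3 mice beside the points. Each panel has its own axis. The 3 Srebf1 points of unstimulated controls lie together at 9.38 to 9.43, Elovl6 lies at 9.18 to 9.75 in controls with HGF, and the filled blue circle, replicate 1, is the lowest point for Lss, Sqle, Nsdhl, Fasn and Acss2.

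In the cholesterol arm, the HGF difference in controls was below 0 for 14 of 14 genes, from -1.03 to -0.14 with a median of -0.33, against a median of -0.09 over all tested probe sets. Without control replicate 1 with HGF it was above 0 for 11 of 14 genes, with a median of 0.12. The direction of the arm therefore rested on that mouse. With array weights, which give less weight to arrays that stray, the split was 7 above and 7 below with a median of -0.0079. Sqle, the squalene epoxidase that commits squalene to sterols, was at 8.59, 8.81 and 8.30 in unstimulated controls and at 6.42, 8.76 and 8.60 with HGF. On knockout arrays it was at 7.84, 8.57 and 7.88 unstimulated and at 8.68, 8.11 and 8.85 after HGF. Its difference of -0.64 in controls (SE 0.53, limma adjusted p = 0.528) became 0.11 without replicate 1 with HGF.

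Lss, the lanosterol synthase that closes the sterol ring system, was at 7.86, 8.11 and 7.70 in unstimulated controls and at 5.74, 8.34 and 8.57 with HGF. On that lowest array its linear intensity was 52.5, against 157 to 378 on the other 11. Its level there was 4.35-fold below the median of the others on the log2(intensity + 1) scale, and the other HGF-treated control mice were above all unstimulated ones. Nsdhl, which acts in the removal of methyl groups from the sterol ring, was at 10.19 to 10.48 in unstimulated controls and at 8.51, 10.45 and 10.58 with HGF. The 6 knockout arrays lay within 10.21 to 10.46, so 8.51 stood 1.69 below the lowest of the other 11 arrays. Dhcr7, the enzyme of the last step to cholesterol, was at 7.32, 9.53 and 9.58 in controls with HGF and at 8.60 to 9.44 on all other arrays. Pmvk, phosphomevalonate kinase, was at 6.99, 8.94 and 9.13 with HGF and at 8.17 to 8.78 on all other arrays. For Dhcr7, Pmvk and Lss, replicates 2 and 3 with HGF were the highest of all 12 arrays and replicate 1 the lowest.

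Fdft1, the squalene synthase, was at 8.25 on control replicate 1 with HGF and at 9.56 to 10.11 on the other 11 arrays. Sc5d and Ebp, which act late on the sterol ring, were at 10.11 and 10.90 there, against 11.20 to 11.69 and 11.31 to 11.58 elsewhere. Cyp51, the lanosterol demethylase, was at 7.63 there against 8.38 to 9.09, and Hsd17b7, a sterol ketone reductase, at 5.86 against 6.82 to 7.50. Mvk, mevalonate kinase, was at 3.88 there against 4.68 to 5.26, low levels near the filter at a log2 of 4. None of these genes was as low on any other array, and the gap to the next array exceeded the whole range of the other 11 for Fdft1, Sc5d, Cyp51, Hsd17b7, Mvk and Ebp. Tm7sf2, a sterol reductase, differed less, at 9.71 there against 9.82 to 10.31, and its HGF difference in controls was -0.30 (SE 0.13, limma adjusted p = 0.229).

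Mvd and Stard4 differed from the rest of the arm, because their control groups did not overlap. Mvd, mevalonate diphosphate decarboxylase, was at 4.33, 5.03 and 4.45 in unstimulated controls and at 3.22, 3.58 and 3.91 with HGF. These are low levels, where this scale understates differences. The difference was -1.03 (SE 0.27, 95% CI -1.64 to -0.43, limma adjusted p = 0.102), and it was -0.86 without replicate 1 with HGF. Mvd was called as lower in the control arrays fitted alone (limma adjusted p = 0.0405), in a fit with array weights (limma adjusted p = 0.0159), without knockout replicate 2 without HGF (limma adjusted p = 0.0424) and without knockout replicate 2 in both conditions (limma adjusted p = 0.0294). Fitted alone, the control arrays called 5.19% of all tested probe sets as lower, and the other 3 fits called 20.2%, 4.74% and 8.16% in either direction. The range of adjusted p over all alternatives was 0.0159 to 0.323. On knockout arrays Mvd was at 3.76, 4.45 and 3.71 unstimulated and at 4.13, 4.0 and 4.59 after HGF. Its interaction of 1.30 (SE 0.38, limma adjusted p = 0.329) did not pass.

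Stard4, a cholesterol carrier under SREBP control, was at 9.07, 9.21 and 9.38 in unstimulated controls and at 8.25, 8.89 and 8.87 with HGF, a difference of -0.55 (SE 0.24, limma adjusted p = 0.246). The knockout arrays were at 9.44, 9.34 and 9.97 unstimulated and at 9.07, 9.74 and 9.11 after HGF. With HGF, all knockout arrays lay above all control arrays, a difference of 0.64 (SE 0.24, limma adjusted p = 0.496). Mvd was the other member with no overlap in that comparison, 2 of 30 members against 14.9% of all tested probe sets. For the HGF effect in controls, groups without overlap were found for 6 of 30 members (Srebf2 and Elovl6 higher, Srebf1, Insig1, Mvd and Stard4 lower), against 37.7% of all tested probe sets. Neither share was above that of all probe sets.

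**Figure D3:**
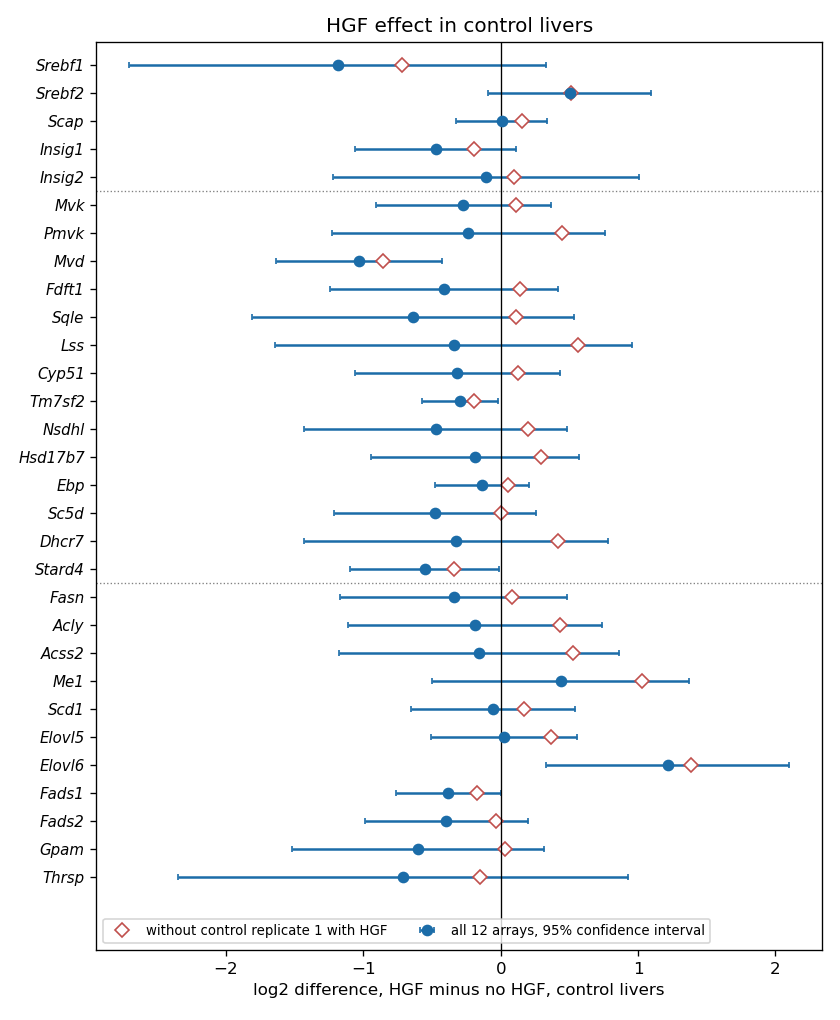
HGF effect in control livers for the 30 tested members on the log2(intensity + 1) scale (x axis), with the 95% confidence interval of the 4-group limma model over all 12 arrays (blue) and the difference without control replicate 1 with HGF (open diamonds), dotted lines separating regulators, cholesterol and fatty acid genes. In the cholesterol arm all 14 blue points lie below 0 and 11 of 14 diamonds above it, while Srebf1 and Mvd stay below 0 and Elovl6 above 0 in both.

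In the fatty acid arm, 8 of 11 genes had an HGF difference below 0 in controls and 3 above, with a median of -0.19, and without replicate 1 with HGF the split was 3 below and 8 above with a median of 0.17. With array weights it was 4 below and 7 above, also with a median of 0.17. Elovl6, the elongase that extends palmitate to stearate, stood out from both. It was at 8.60, 8.28 and 8.01 in unstimulated controls and at 9.18, 9.75 and 9.61 with HGF, and each HGF array was above each unstimulated one, replicate 1 included. The difference was 1.22 (SE 0.40, 95% CI 0.33 to 2.10), and it missed the threshold in the 4-group model (limma adjusted p = 0.142). Elovl6 was called as higher in the control arrays fitted alone (limma adjusted p = 0.0128), with 6.79% of all probe sets called as higher. It was also called in the fit with array weights (limma adjusted p = 0.0093), with 20.2% of all called in either direction. Over all alternatives its limma adjusted p ranged from 0.0092 to 0.363. On knockout arrays it was at 8.26, 9.39 and 8.29 unstimulated and at 8.18, 9.14 and 9.68 after HGF, a difference of 0.35 (SE 0.40, limma adjusted p = 1.00). That difference was 0.65 without knockout replicate 2 in both conditions and ranged from 0.014 (without knockout replicate 3 with HGF) to 0.77 (without knockout replicate 1 with HGF) when 1 array was left out. The groups overlapped there, and the interaction of -0.86 (SE 0.56, limma adjusted p = 0.623) did not pass.

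Acss2, which makes acetyl-CoA from acetate, was at 10.69, 10.53 and 10.55 in unstimulated controls and at 9.06, 10.81 and 11.42 with HGF. The latter 3 values span all other arrays, and the 6 knockout arrays lay within 10.42 to 11.12. Acly, ATP citrate lyase, was at 9.99 to 10.25 in unstimulated controls and at 8.74, 10.30 and 10.87 with HGF. Me1, the malic enzyme that supplies NADPH, was at 9.66, 9.31 and 9.46 in unstimulated controls and at 8.72, 10.51 and 10.51 with HGF. Replicates 2 and 3 with HGF were the highest of all 12 arrays for Me1 and Elovl5, and replicate 1 the lowest. In the control arrays alone without replicate 1 with HGF, Me1 rose by 1.03 (SE 0.12, limma adjusted p = 0.0065), Elovl6 by 1.38 (SE 0.18, limma adjusted p = 0.0092) and the cholesterol gene Pmvk by 0.45 (SE 0.10, limma adjusted p = 0.0366). With Srebf1 these were the 4 of 30 members called there, against 14.6% of all tested probe sets, and 3 of the 4 were higher with HGF.

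Fasn, the fatty acid synthase, was at 10.30, 10.40 and 9.94 in unstimulated controls and at 9.03, 10.09 and 10.49 with HGF, and the groups overlapped. Gpam, the acyltransferase that starts glycerolipid synthesis, was at 8.36 to 8.63 in unstimulated controls and at 6.63, 8.55 and 8.49 with HGF. On replicate 1 it was 3.44-fold below the median of the other 11 arrays. The desaturases Fads1 and Fads2 were at 9.90 and 8.94 on that array, against 10.42 to 10.81 and 9.80 to 10.32 elsewhere, and the elongase Elovl5 was at 10.36 against 10.83 to 11.50. Scd1, the stearoyl-CoA desaturase, was at 11.74 there, above the 11.52 and 11.53 of knockout replicate 1 with HGF and replicate 2 without HGF. Scd1 and Elovl6 were the 2 fatty acid genes not lowest on that array.

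In knockouts, the HGF difference was above 0 for 11 of 11 fatty acid genes, with a median of 0.32, and for 10 of 14 cholesterol genes, with a median of 0.14, against a median of -0.005 over all tested probe sets. With replicate 2 of both conditions left out, the split was 7 above and 4 below for the fatty acid arm (median 0.20) and 9 above and 5 below for the cholesterol arm (median 0.15). With 1 array left out at a time, the fatty acid median ranged from 0.12 without knockout replicate 2 with HGF, where 9 genes were above 0 and 2 below, to 0.52 without knockout replicate 1 with HGF. Acly was at 9.57, 9.77 and 9.37 unstimulated and at 10.23, 10.23 and 10.30 after HGF, a difference of 0.69 (SE 0.42, limma adjusted p = 1.00). Gpam was at 8.07, 7.98 and 7.83 unstimulated and at 8.28, 8.69 and 8.41 after HGF, a difference of 0.50 (SE 0.41, limma adjusted p = 1.00). Together with Acss2 and Fdft1, these were the 4 of 30 members whose knockout groups did not overlap, against 3.80% of all tested probe sets, all higher with HGF. That share was above the background, but the members were not tested against it. The separation was narrow for Acss2, at most 10.659 unstimulated and at least 10.667 after HGF, and for Fdft1, at 9.817 and 9.830. Knockout replicate 2 is included in these counts. Fasn was at 9.75, 9.69 and 9.26 unstimulated and at 9.63, 10.51 and 10.68 after HGF, and its groups overlapped at replicate 1.

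Without HGF, knockout and control arrays did not overlap for 5 of 30 members, against 18.7% of all tested probe sets in either direction. The 5 were Fasn, Acly, Scd1, Gpam and Scap, all lower in knockouts, against 811 of 6683 probe sets lower without overlap. The members were not tested against this share. Fasn differed by -0.64 (SE 0.37, limma adjusted p = 0.595), Acly by -0.59 (SE 0.42, limma adjusted p = 0.674) and Gpam by -0.53 (SE 0.41, limma adjusted p = 0.707). Scd1 was at 12.42, 12.10 and 12.20 in controls and at 12.03, 11.53 and 11.77 in knockouts, a difference of -0.46 (SE 0.27, limma adjusted p = 0.597). The fatty acid arm had a median of -0.10 in this contrast and the cholesterol arm -0.09, against -0.03 over all. In the same contrast 7 of 7 tested stellate and matrix genes were higher in knockouts (median 0.43, 5 with an unadjusted p under 0.05), with summed levels of 11.16 to 11.40 against 10.69 to 10.93 in unstimulated controls. Of the Kupffer cell genes, 11 of 12 were lower (median -0.48, 2 with such a p), with sums of 11.59 to 12.22 against 11.94 to 12.54. None of these genes was called, and their part in the members' differences was not tested. Insig2 and Mvd were called as lower here in the fit with array weights (limma adjusted p = 0.0406 and 0.0381), with 9.53% of all probe sets called.

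With HGF, the knockout difference was above 0 for 14 of 14 cholesterol genes and 8 of 11 fatty acid genes, with medians of 0.39 and 0.37 against 0.04 over all tested probe sets. Without control replicate 1 with HGF it was above 0 for 4 of 14 and 3 of 11, with medians of -0.12 and -0.23. The interaction had medians of 0.55 for the cholesterol arm and 0.46 for the fatty acid arm, which became 0.02 and 0.10 without that array. Without knockout replicate 2 in both conditions the fatty acid median of the interaction was 0.22, with 7 genes above 0 and 4 below, and that of the averaged knockout effect turned from 0.02 to -0.092. These contrasts share the control arrays with HGF, so their signs are not separate evidence.

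Srebf1, Insig2 and Thrsp were the members that varied most among knockout arrays, and their values are set here beside clock genes that vary with time of day. Thrsp, a lipogenic gene responsive to thyroid hormone and carbohydrate, was at 12.05, 9.79 and 12.29 in knockouts without HGF and at 10.41, 12.53 and 11.26 with HGF. In controls it was at 11.31, 10.99 and 10.64 unstimulated and at 9.15, 10.63 and 11.02 after HGF. The clock output gene Dbp was at 10.72, 2.92 and 10.72 on the knockout arrays without HGF and at 5.09, 11.05 and 2.81 with HGF, against 2.61 to 7.50 in controls. Arntl, a core clock gene, was at 2.77, 5.76 and 2.59 unstimulated and at 5.66, 2.82 and 5.41 after HGF, against 4.84 to 5.62 in controls. The 3 knockout arrays with the highest Dbp had the lowest Insig2 and the highest Srebf1 and Thrsp of the 6, whatever their HGF label. Fkbp5, which is not a clock gene and is described below, was at 5.17 to 5.56 on these 3 and at 6.64 to 6.69 on the other knockout arrays. The part of time of day in these values was not tested, as no sampling times are given.

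**Figure D4:**
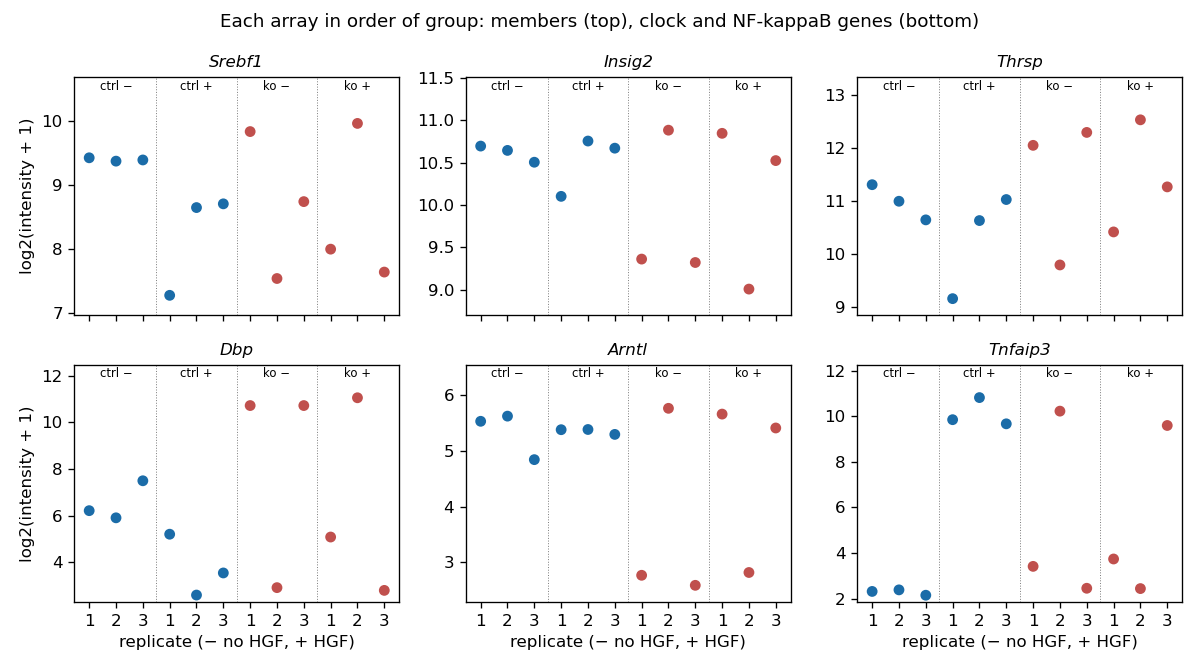
Srebf1, Insig2 and Thrsp (top) and the clock genes Dbp and Arntl and the NF-kappaB target Tnfaip3 (bottom) as log2(intensity + 1) on each array, in the order controls without and with HGF (blue), knockouts without and with HGF (red), 3 replicates each. Knockout replicates 1 and 3 without HGF and replicate 2 with HGF share Dbp of 10.72 to 11.05 and Insig2 of 9.01 to 9.36, and the other 3 knockout arrays have Dbp of 2.81 to 5.09 and Insig2 of 10.52 to 10.88.

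Further genes of the 2 pathways, 18 of sterol handling and 29 of lipogenesis that were tested, gave 0 calls in every contrast. In controls, 2 of 18 sterol genes were higher and 16 lower with HGF (median -0.20), and 1 had an unadjusted p under 0.05, against 4307 of 6683 lower, a median of -0.09 and the 19.6% with such a p over all probe sets. Of the lipogenic genes 10 were higher and 19 lower (median -0.16), and 3 had such a p, again a lower share than over all. Lpin1, a phosphatidate phosphatase and coactivator, was at 7.59, 7.49 and 7.66 in unstimulated controls and at 9.79, 8.71 and 9.46 with HGF, a difference of 1.74 (SE 0.53, limma adjusted p = 0.127). The knockout arrays were at 9.10, 9.16 and 8.28 unstimulated and at 10.46, 8.55 and 10.89 after HGF, so all 6 lay above the unstimulated controls. Mylip, a ubiquitin ligase gene induced by sterols through LXR, was at 4.76 to 5.30 in unstimulated controls and at 3.54 to 4.15 with HGF, a difference of -1.20 (SE 0.60, limma adjusted p = 0.305). Mid1ip1, which activates acetyl-CoA carboxylase and is related to Thrsp, was at 8.90, 8.85 and 9.23 in unstimulated controls and at 6.60, 8.10 and 8.16 with HGF, a difference of -1.38 (SE 0.75, limma adjusted p = 0.341). Abcg8, of the biliary sterol exporter, was at 7.38 to 7.46 in unstimulated controls and at 6.28 to 6.65 with HGF, and on knockout arrays at 8.46, 7.04 and 8.13 unstimulated and at 6.92, 8.02 and 5.63 after HGF. Its HGF differences were -0.95 (SE 0.52, limma adjusted p = 0.339) in controls and -1.02 (SE 0.52, limma adjusted p = 1.00) in knockouts. On control replicate 1 with HGF, 2 of 18 further sterol genes and 12 of 29 further lipogenic genes were at their lowest, against 14 of 14 and 9 of 11 in the 2 synthesis arms.

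Other values moved on control replicate 1 with HGF. Fkbp5, a glucocorticoid receptor target, was at 8.31 there and at 4.70 to 6.69 on the other 11 arrays. The other controls with HGF were at 5.62 and 5.43, above the unstimulated controls (4.70 to 4.88). G6pc, the glucose-6-phosphatase gene that insulin lowers, was at its lowest on control replicate 1 with HGF, but it was low in all 3 controls with HGF. It was at 5.44, 6.37 and 8.45 in them (replicates 1 to 3), against 10.06 to 10.73 in unstimulated controls and 7.04 to 9.63 on knockout arrays. These 2 genes were picked with their values in view. The neutrophil list summed to a log2 of 10.37 there, within the 9.63 to 11.49 of the 3 controls with HGF, against 5.63 to 6.74 in unstimulated controls. The summed endothelial list was lower in all 3 controls with HGF, at 10.39 to 10.43, than in unstimulated controls (10.76 to 10.80) and knockouts (10.54 to 10.97). Of its genes, 8 of 9 were lower with HGF in controls, 5 of them without overlap, against 4307 and 1581 of 6683 tested probe sets. The other gene was higher by 2.61, also without overlap. Control replicate 1 with HGF, at 10.43, did not stand apart from the other 2 in this sum. The Kupffer cell list, at 11.77, lay within the range of the other arrays (11.59 to 12.54), and the erythroid and acinar lists, at 8.33 and 7.15, lay below the others (8.67 and 7.40 or more). The part of these values in the low sterol and lipogenic levels was not tested.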

How the data were processed

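Total liver RNA of 12 mice was labelled with biotin and hybridised to Affymetrix arrays, per the labels' protocols. The authors deposited 1 linear intensity per probe set and array, made with GCRMA (version not given in the sources used here) per the submitters' processing notes. GCRMA adjusts for background by base composition and normalizes between arrays, so a shift common to most genes is removed and differences near background are compressed. Arrays give no depth; their number, 3 per group, limits the precision. Groups and replicate numbers came from the titles.

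Values were taken as log2(intensity + 1). Probe sets were named by the platform annotation (15780 of 16475 with 1 symbol, 695 with none) and kept at a log2 of 4 or more on at least 3 arrays. limma 3.58.1 in R 4.3.3 fitted a mean per group over all 12 arrays (8 residual degrees of freedom), with 6 two-sided contrasts and Benjamini-Hochberg adjustment over 6683 probe sets at 0.05. The model was tested on simulated data. Alternatives were an offset of 16, other filters, a replicate block, only the groups compared, array weights, quantile normalization, a trended robust prior, each array left out, knockout replicate 2 left out in both conditions, and the controls alone without replicate 1 with HGF. Any member could be named; of the other pathway genes, those called or the 4 with the smallest p in each direction, and of other lists a few genes beside a result. Members and lists were chosen with earlier results of these data known. Promoters came from RefSeq (GRCm38.p6), matched by symbol.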

Additional observations from a re-analysis of the deposited data

How the results depend on the processing

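A median counted as moved where it shifted by more than the within-group SD of the array medians (0.195 for regulators, 0.419 for cholesterol, 0.393 for fatty acid genes), and a count where it changed by over 1.5 times. By these limits 470 values stayed, 22 moved and 8 gained calls. The limits are wide, so some medians that stayed within them changed sign or nearly vanished. Members called numbered 2 for the HGF effect in controls with only the groups compared, 3 there and 2 for the knockout effect without HGF with array weights, 1 each for HGF in controls, HGF in knockouts and the knockout effect without HGF without knockout replicate 2 in both conditions, and 4 for HGF in controls with the controls alone without replicate 1 with HGF, chosen after seeing the data, where the regulator median was 0.10 and the cholesterol median 0.12. With array weights, whose estimation stopped before full convergence, the regulator median was 0.0046 for HGF in knockouts, -0.16 for the knockout effect without HGF and 0.11 for the interaction, the cholesterol median was 0.12 for the interaction, and the fatty acid median was -0.25 for the knockout effect with HGF and -0.078 for the interaction. Within the limits, array weights also gave -0.0079 (cholesterol), 0.17 (fatty acid) and 0.031 (regulators) for HGF in controls, against -0.33, -0.19 and -0.11. They gave 0.10 for the cholesterol median of the knockout effect with HGF, against 0.39, and -0.066 and -0.22 for the cholesterol and fatty acid medians of the averaged knockout effect, against 0.14 and 0.02. Without knockout replicate 2 in both conditions the regulator median was 0.0082 for HGF in knockouts and 0.15 for the interaction, and with a filter at a log2 of 6 it was 0.062 for the knockout effect with HGF, as fewer regulators were tested. The cause of the other shifts was not tested.

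Leaving out 1 array at a time gave 0 to 1 members called for HGF in controls. The regulator median ranged from -0.23 to 0.10 for HGF in controls, from 0.0035 to 0.26 for HGF in knockouts and from 0.11 to 0.50 for the interaction. The cholesterol median ranged from -0.68 to 0.12 for HGF in controls, from -0.12 to 0.77 for the knockout effect with HGF and from 0.019 to 0.88 for the interaction. The fatty acid median ranged from -0.51 to 0.17 for HGF in controls, from 0.12 to 0.52 for HGF in knockouts and from -0.23 to 0.53 for the knockout effect with HGF. Same-numbered replicates deviated together weakly at most in controls (r across probe sets 0.10, 0.18 and 0.05, against -0.18 to 0.07 for unlike numbers). In knockouts r was 0.12, -0.83 and -0.70, against -0.69 to 0.85 for unlike numbers. These deviations are from group means that include knockout replicate 2, so r cannot settle whether the numbers mark pairs there. Same-numbered replicates carried neighbouring array numbers (1 and 2, 5 and 6, 3 and 4 in controls, 7 and 8, 9 and 10, 11 and 12 in knockouts). The numbers were not taken as pairs in the main model. A replicate block gave 0 members called in every contrast and the same medians, -0.33 for the cholesterol arm with HGF in controls. With the block, 0 of all 6683 probe sets were called for HGF in controls, against 27 without it. With 3 mice per group and array signal as the only measure, precision was limited, with a median SE of 0.357 for members. For HGF in controls, differences of 1.22 (Elovl6, own SE 0.40) and -1.03 (Mvd, own SE 0.27) did not pass in the 4-group model. The difference of -1.19 for Srebf1 did not pass either, but its own SE was larger, at 0.68 (limma unadjusted p = 0.112). A member that was not called may therefore still differ.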
